A study of Mus musculus with 96 samples.

Results

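The genes described here are the mouse solute carriers on the array: every gene whose platform symbol follows the Slc pattern of a family number, letters and a member number. The rule left out the Slco genes and Slc40a1. It gave 188 genes on 256 probes, and probes of the same gene were averaged. Of these, 174 genes had enough values to be tested, within 11593 genes and unnamed probes tested in all. The 14 members without a test were Slc12a3, Slc12a9, Slc22a8, Slc24a3, Slc25a27, Slc25a3, Slc3a1, Slc44a4, Slc46a2, Slc5a4a, Slc5a4b, Slc5a7, Slc6a6 and Slc7a10, and Slc5a4a was listed at 0 on every array. The symbol rule also took in 4 genes that are not transporters, namely Slc4a1ap, Slc9a3r2, Slc6a19os and the pseudogene Slc39a1-ps, and they stay in the counts. Groups of carriers named by substrate were set by family number, so a group can hold genes with another substrate.

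RNA came from RAW 264.7 cells, a mouse macrophage-like line, and each 2-colour array set treated cells against untreated cells of the same culture time. The cells received lipopolysaccharide (LPS; 100 ng, with no volume in the labels, together with 100 pM LPS-binding protein) for 30 min, 1 h, 2 h or 4 h. They received interferon gamma (IFNG, 5 nM), 2-methyl-thio-ATP (2MA, an agonist of purine receptors, 500 uM), LPS with IFNG, or LPS with 2MA for 1 h, 2 h or 4 h. These 16 groups hold 3 sets each, and both dye orientations were run for every set, which gives 96 arrays and 48 set values per gene. The description of 1 sample gives the 2MA dose in nM instead of uM. The labels do not say whether the sets are separate cultures, so the p-values reflect only how far sets differed, and that spread may be technical. They also do not say whether treatments of the same set and time share 1 untreated RNA.

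A value is the log2 of treated over untreated, so that 1 is a doubling in treated cells. An array held 13508 to 15004 values other than 0, and 75 of the 8352 set values of the tested members were missing. The number of sets limits the precision: over all features the median standard error of a group mean was 0.113. A ratio carries no level, so levels of different carriers were not compared, and a value near 0 can belong to a gene that did not change or to a gene that was not expressed. For the same reason the cell type could not be checked by level: 6 of 8 macrophage markers had values, but so did 4 of 4 T cell markers. A response of every cell and a larger response of some cells cannot be told apart in these bulk ratios.

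Solute carriers are membrane proteins that move ions, metals, sugars, amino acids, nucleosides and vitamins across the plasma membrane and across the membranes of lysosomes, mitochondria, the Golgi and the endoplasmic reticulum. Most work by coupling their substrate to a gradient of sodium, protons or another solute, or by exchanging 1 substrate for another. In macrophages they are known for supplying arginine and cystine during activation, for moving iron, zinc and manganese between the cytosol and the phagosome, and for taking up glucose.

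The share of solute carriers called in either direction lay above that of all features in every group except LPS at 30 min. The margin was small in some groups, such as 12.6% against 12.3% with IFNG at 4 h. In some group 22 members had a mean response of at least 1 in size, a count that was not made over all features. The higher calls held larger shares than over all features at 1 h (5.75% against 3.13%) and 2 h (13.8% against 7.84%) of LPS, and the lower calls smaller ones at those times (1.15% against 2.48% and 5.75% against 8.18%); these shares are a description and were not tested. A member was called when its adjusted p (limma, Benjamini-Hochberg over all features) was below 0.05. After 30 min of LPS 1 member was higher, against 1.04% of all features called. After 1 h 10 were higher and 2 lower, which is 6.9% of the members against 5.61% of all features in either direction. After 2 h 24 were higher and 10 lower, 19.5% against 16%. After 4 h 29 were higher and 29 lower, 33.3% against 28.6% (12.7% higher and 15.9% lower). The median response of the members at 4 h was 0.00465, beside 0.00242 over all features. Across the 16 responses, 99 members were called at least once and 75 never. Of the members called, 42 were called only higher, 52 only lower, and 5 in both directions. These counts over all responses were not made for all features, so they cannot be read as particular to the carriers. Without set 1 the count at 1 h was 6 and without set 2 it was 7, while the single call at 30 min was lost without set 2 and without set 3. A fit without a set rests on fewer set values, so a call can be lost while its value hardly moves. A further fit took the set as a block, a term that removes what the treatments of a set share within a time. The counts at 30 min and 1 h were then 2 and 19 of 173 members it could fit, beside 1.81% and 11.1% of all features. LPS was the only treatment at 30 min, so that time had no block term of its own and took only the error of the whole fit.

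**Figure D1:**
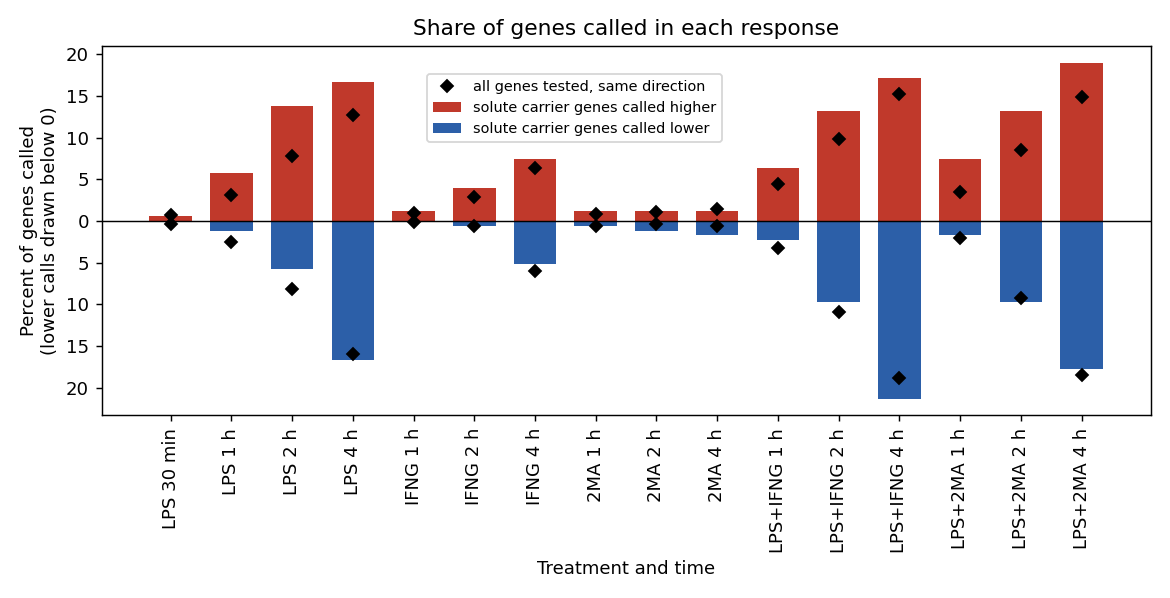
Percent of the 174 tested solute carrier genes called higher (bars above 0) and lower (bars below 0) in each treatment and time, with the percent of all 11593 features called in the same direction (diamonds). The LPS 4 h bars both reach 16.7%, beside diamonds at 12.7% and 15.9%, and the 2MA bars reach 1.72% at most.

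Promoters are printed for 3 members, Slc28a2, Slc7a11 and Slc37a2, because their responses to LPS, to IFNG and to the pair turned on which agent was given, as described further on. Each run is the 250 bases before the RefSeq transcription start (GRCm38.p6), 5′ to 3′ on the gene's strand, and capitals mark matches to a motif. The Slc28a2 run is chr2:122426185-122426434 on the plus strand, with a gamma-activated site (TTCNNNGAA) in capitals. The Slc7a11 run is chr3:50443614-50443863 on the minus strand, with a gamma-activated site and a pair of amino acid response elements (TGATGNAA, the second on the opposite strand). The Slc37a2 run is chr9:37255739-37255988 on the minus strand, with an AP-1 site (TGANTCA).
Slc28a2: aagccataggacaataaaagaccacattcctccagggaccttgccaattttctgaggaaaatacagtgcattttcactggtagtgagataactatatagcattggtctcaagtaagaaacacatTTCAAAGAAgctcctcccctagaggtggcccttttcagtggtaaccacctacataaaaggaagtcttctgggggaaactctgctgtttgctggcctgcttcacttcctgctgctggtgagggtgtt
Slc7a11: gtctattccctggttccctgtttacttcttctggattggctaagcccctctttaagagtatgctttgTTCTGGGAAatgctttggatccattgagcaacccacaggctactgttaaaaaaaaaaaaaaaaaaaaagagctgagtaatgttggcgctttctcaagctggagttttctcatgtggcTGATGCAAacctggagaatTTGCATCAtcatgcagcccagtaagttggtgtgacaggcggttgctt
Slc37a2: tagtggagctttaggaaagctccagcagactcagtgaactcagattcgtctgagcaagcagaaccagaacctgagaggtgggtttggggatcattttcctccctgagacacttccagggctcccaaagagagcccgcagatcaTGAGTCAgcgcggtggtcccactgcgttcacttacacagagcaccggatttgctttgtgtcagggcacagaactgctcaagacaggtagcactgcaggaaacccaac
These promoters were chosen after the responses and the matches had been seen. In all, 8 motifs were searched on both strands: those named above, the interferon-stimulated response element, the NF-kB site, the antioxidant response element (TGACNNNGC), the E-box (CACGTG) and the metal response element (TGCACNC). The antioxidant response element and the AP-1 site share their first letters and can overlap. In windows of 300 bases around all RefSeq starts, a gamma-activated site was found in 8.3%, the amino acid response element in 3.97% and the AP-1 site in 7.81%. The other motifs were found in 3.44% (interferon-stimulated response element), 4.51% (NF-kB), 12.4% (antioxidant), 7.15% (E-box) and 12.6% (metal) of windows. Of the 188 members, 149 had a window, and 58.4% of these held at least 1 of the motifs, beside 50.1% of all 27025 genes. The gamma-activated site was in 5.37% of these members and 9.55% of all genes. Member shares were also smaller for the amino acid response element (3.36% and 4.51%) and the AP-1 site (8.72% and 8.97%). So was that of the interferon-stimulated response element (1.34% and 3.99%). They were larger for the NF-kB (7.38% and 5.14%), antioxidant (17.4% and 14%), E-box (18.1% and 8.09%) and metal (23.5% and 14.2%) motifs. None was tested. Among the 22 members with a response of at least 1, 18 had a window and 12 of these held a motif; Slc12a4, Slc16a10, Slc19a2, Slc22a17, Slc5a3 and Slc6a4 held none. A match says only that the letters are present.

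**Figure D2:**
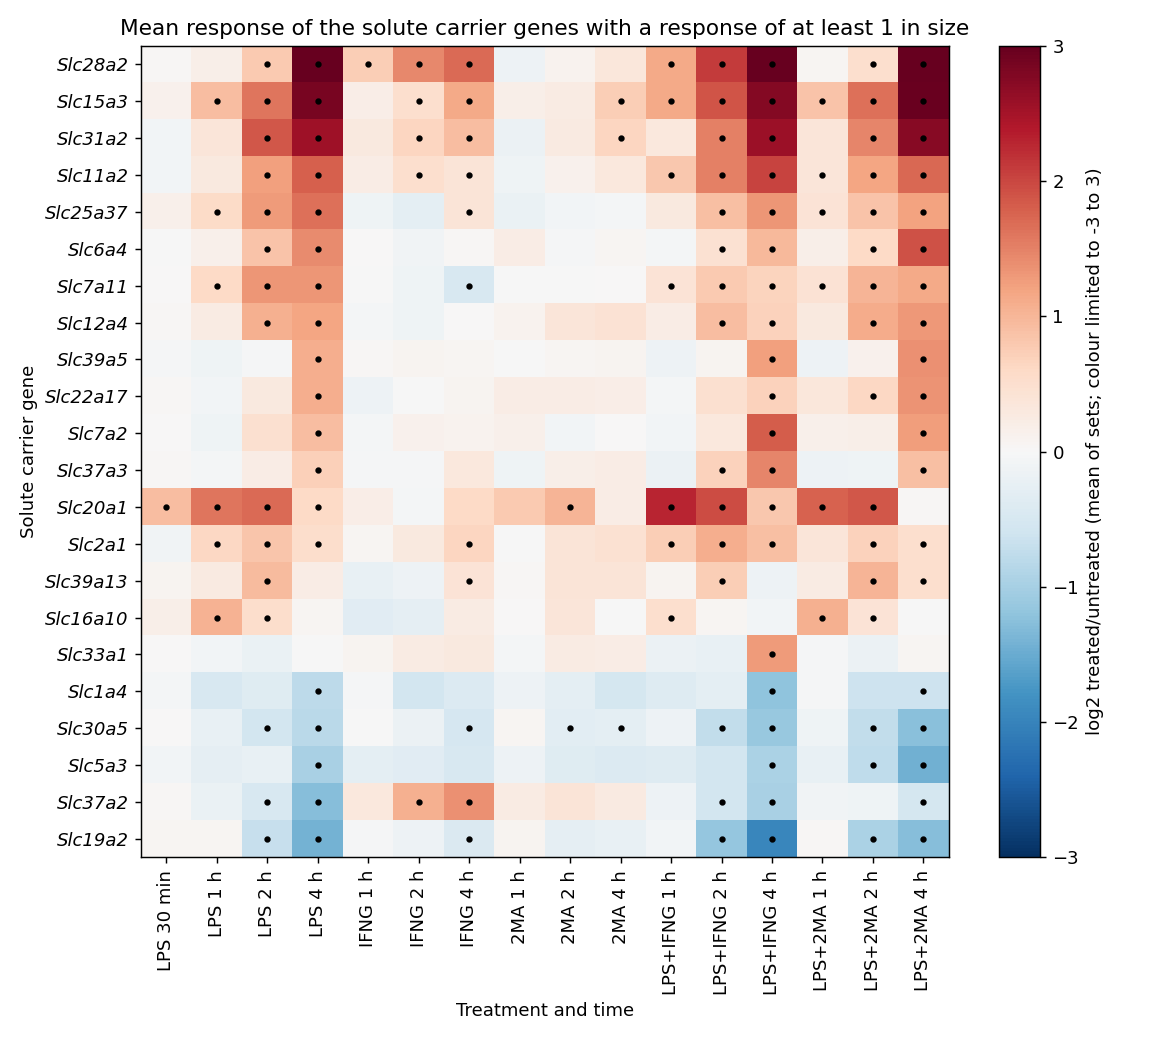
Mean log2 treated/untreated of the 22 members with a mean of at least 1 in size in any group (rows) in all 16 groups (columns), with colours limited to 3 in size. Slc28a2, Slc15a3 and Slc31a2 are the darkest rows in every 4 h column that holds LPS, and Slc37a2 changes colour between LPS and IFNG.

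The nucleoside carriers split. Slc28a2, which takes up purine nucleosides together with sodium, gave the largest rise of all members. Its 3 sets after 4 h of LPS read 3.24, 3.53 and 2.44, a mean of 3.07 ± 0.57 (SD, n = 3) or 8.4-fold (adjusted p = 4.91e-20). All 3 sets lay far above 0, and set 3 was the lowest. At 2 h the sets read 1.06, 1.09 and 0.24 (mean 0.80 ± 0.48, adjusted p = 4.83e-05), and at 1 h the mean was 0.18 ± 0.17, which did not pass. The equilibrative nucleoside carriers, which let nucleosides pass down their gradient, did not move alike. Slc29a2 and Slc29a1 were lower at 4 h of LPS, and the lysosomal Slc29a3 stood at 0.27, 0.32 and 0.21, which did not pass, and was higher with LPS and 2MA (0.57, 0.93 and 0.68). Slc29a2 read -0.96, -0.45 and -0.54 at 4 h (mean -0.65 ± 0.27, adjusted p = 2.35e-07), and Slc29a1 read -0.76, -0.61 and -0.46 (mean -0.61 ± 0.15, adjusted p = 1.55e-08). Slc29a2 was already lower at 1 h (-0.30), but that call was lost with each set left out. The value was -0.35, -0.26 and -0.28 without set 1, set 2 and set 3, and none of these passed. Of the 19 tested carriers of nucleosides and nucleotide sugars, 1 was higher and 4 lower at 4 h of LPS. Over all features 12.7% were higher and 15.9% lower. The median of these carriers was -0.022. Counts of the substrate groups, here and below, were not tested against the shares over all features. The UDP-galactose carrier of the Golgi, Slc35a2, read 0.34, 0.28 and 0.24 at 1 h of LPS (adjusted p = 0.0107), a call lost without set 1 (0.26) and without set 2 (0.29).

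Slc15a3, a lysosomal carrier of histidine and small peptides, rose from 1 h on. Its sets read 1.09, 0.57 and 1.10 at 1 h, and 2.99, 3.00 and 2.55 at 4 h. The 4 h mean was 2.85 ± 0.25 (SD, n = 3), a 7.19-fold rise (adjusted p = 4.2e-21), and the sets of the 2 times did not overlap. Its pair of probes gave 2.63 and 3.06 at 4 h. It was the member called in most groups, 12 of 16. The other tested peptide carriers of the family did not pass at 4 h of LPS; Slc15a2, a proton-coupled peptide carrier, was at -0.06.

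Metal carriers held several of the large rises. Slc31a2, a copper carrier-like protein of late endosomes, read 2.20, 1.75 and 1.65 at 2 h and 2.78, 2.35 and 2.52 at 4 h. Its 4 h mean of 2.55 ± 0.22 was a 5.86-fold rise (adjusted p = 2.56e-18), and every 4 h set lay above every 2 h set. Slc11a2, which moves iron and other divalent metals with protons, read 1.33, 1.49 and 0.85 at 2 h and 1.72, 2.09 and 1.55 at 4 h (4 h mean 1.79 ± 0.28, adjusted p = 2.55e-16). Slc11a1, its relative of the phagosome membrane, rose less, with sets at 0.55, 0.87 and 0.62 at 4 h (adjusted p = 8.63e-05). Of the zinc exporters, Slc30a1 of the plasma membrane rose to 0.74 ± 0.20 at 4 h, Slc30a7 to 0.55 ± 0.05 and Slc30a6 to 0.46 ± 0.05. Slc30a5, which loads zinc into the secretory pathway, fell instead: its sets read -0.78, -0.81 and -0.84, with an SD of 0.03. Slc39a13, a zinc importer of internal membranes, passed at 2 h (0.94 ± 0.17) and stood at 0.23 ± 0.22 at 4 h, which was not called. In all, 7 of the 18 metal carriers were higher and 1 lower at 4 h, beside 12.7% and 15.9% of all features. Their median was 0.135. The higher ones include Slc39a5, whose probes differed.

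The zinc importer Slc39a5 was listed at 1.10 ± 0.22 at 4 h, but its probes differed: 1 read 2.14 and the other 0.06. The mean of that gene therefore describes neither probe. Probes also differed for Slc1a2, with 0.10, 0.85 and -0.83 at 4 h of LPS, and for Slc13a1, with 0.09, 0.68 and 0.99. The probes of Slc6a4 (1.59 and 1.25), Slc30a1 (0.63 and 0.84) and Slc30a5 (-0.76 and -0.86) had the same direction.

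Among the mitochondrial carriers, Slc25a37 (mitoferrin, which brings iron into mitochondria) rose at 1 h, 2 h and 4 h of LPS. Its sets read 0.42, 0.55 and 0.72 at 1 h, 1.31, 1.10 and 1.44 at 2 h, and 1.64, 1.88 and 1.40 at 4 h. The 4 h mean was 1.64 ± 0.24 (adjusted p = 1.41e-16). The pyrimidine nucleotide carrier Slc25a33 was higher at 1 h (0.54 ± 0.03) and 2 h (0.64 ± 0.29) and stood at -0.20 at 4 h, which did not pass. Slc25a36, which also carries pyrimidine nucleotides, fell at 4 h, with sets at -0.63, -0.94 and -0.33 (adjusted p = 0.00296). The Slc25a36 call was lost without set 1 (-0.63), and those of Slc25a33 without set 2 (0.55) or set 3 (0.53) at 1 h and without set 3 (0.48) at 2 h. Of the 22 tested mitochondrial carriers, 2 were higher and 5 lower at 4 h, beside 12.7% and 15.9% of all features. Their median was -0.113.

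The amino acid group, set by family number, holds the serotonin carrier Slc6a4. It lacks Slc16a10, a carrier of aromatic amino acids that was counted with the sugar and monocarboxylate carriers. In this group 8 rose and 3 fell at 4 h of LPS, beside 12.7% of all features called higher and 15.9% lower. Slc7a11, the exchanger that brings in cystine for glutamate, read 1.39, 1.37 and 1.25 at 2 h and 1.38, 1.27 and 1.33 at 4 h of LPS. Its 4 h mean was 1.33 ± 0.06 (adjusted p = 1.13e-11), and the sets of the 2 times overlapped. Slc3a2, the heavy chain that carries Slc7a11 and related exchangers to the membrane, rose less, with 0.50 ± 0.18 at 1 h and 0.42 ± 0.13 at 4 h; the 1 h call was lost without set 1 (0.48) and the 4 h call without set 2 (0.35). Slc7a7, a light chain for cationic and neutral amino acids, rose to 0.70 ± 0.26 at 4 h. Slc6a4, the serotonin carrier, read 1.60, 1.27 and 1.39 at 4 h (mean 1.42 ± 0.17, adjusted p = 1.38e-11). The arginine carrier Slc7a2 read 0.61, 1.90 and 0.25 at 4 h, so set 2 stood far above the others. Its mean of 0.92 ± 0.87 passed (adjusted p = 0.001), but without set 2 it was 0.43 and did not. Slc1a4, a sodium-coupled carrier of alanine, serine and cysteine, fell, with sets at -0.64, -1.18 and -0.54; its value was -0.86 without set 1 and -0.59 without set 2, and neither passed. The median of the 31 tested genes of the amino acid group was 0.0392.

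Among the sugar and monocarboxylate carriers 8 fell and 3 rose by 4 h, beside 15.9% of all features lower and 12.7% higher. Slc37a2, which exchanges glucose 6-phosphate for phosphate in the endoplasmic reticulum, read -1.14, -1.23 and -1.49 (mean -1.28 ± 0.18, adjusted p = 2.32e-12). Slc37a4, of the same family and function, fell to -0.71 ± 0.09, and Slc5a3, the sodium-coupled carrier of myo-inositol, read -1.22, -1.27 and -0.40 (mean -0.96 ± 0.49). Without set 1 the Slc5a3 value was -0.84 and did not pass. Slc37a3, of the same family, rose instead, with sets at 0.83, 0.41 and 0.93 (adjusted p = 6.49e-05). Slc2a1, the widespread glucose carrier, was higher at 1 h (0.63 ± 0.34), 2 h (0.83 ± 0.31) and 4 h (0.52 ± 0.31). Its 1 h call was lost without set 1 (0.62) and without set 2 (0.46), and its 4 h call without set 2 (0.41). The monocarboxylate carrier Slc16a7 fell, with sets at -0.77, -0.73 and -0.46 (adjusted p = 6.98e-05). The median of the 21 tested genes was -0.154.

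The earliest response of the family was that of Slc20a1, a sodium-coupled phosphate carrier. After 30 min of LPS its sets read 0.75, 0.75 and 1.30 (mean 0.93 ± 0.32, adjusted p = 0.0115). The value without set 2 was 1.02 and without set 3 it was 0.75, and neither passed. It stood at 1.61 ± 0.41 at 1 h and 1.71 ± 0.40 at 2 h, and had come down to 0.61 ± 0.32 at 4 h. The 4 h call was lost without set 2 (0.57) and without set 3 (0.47). Slc16a10, a carrier of aromatic amino acids, was also early, with sets at 0.86, 1.12 and 1.12 at 1 h (mean 1.03 ± 0.15, adjusted p = 1.58e-06) and 0.02, 0.38 and -0.21 at 4 h. Slc19a2, the thiamine carrier, fell late: its sets were near 0 at 1 h (mean 0.07) and read -1.54, -1.44 and -1.26 at 4 h (mean -1.41 ± 0.14, adjusted p = 9.05e-13). Other 4 h rises of at least 1 were Slc12a4, a potassium-chloride cotransporter (1.00, 1.39 and 1.17), and Slc22a17, a receptor for the siderophore-binding protein lipocalin 2 (1.10, 0.59 and 1.60).

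Of the 20 tested carriers of ions and protons 2 were higher and 4 lower at 4 h of LPS. This and the counts below are to be read against 12.7% of all features higher and 15.9% lower. The potassium-chloride cotransporter Slc12a7 read 0.42, 0.49 and 0.48, and the sulfate carrier Slc26a2 read -0.69, -0.49 and -0.68. Slc12a2, which brings in sodium, potassium and chloride, read -0.60, -0.64 and -0.18, a call lost without set 1 (-0.41) and without set 2 (-0.39). Of the 18 carriers of organic ions and lipids 1 was higher, Slc22a17, and 1 lower, the carnitine carrier Slc22a5 (-0.48, -0.32 and -0.34). Of the 15 carriers of phosphate, sulfate, carboxylates and vitamins 3 were higher and 3 lower, among them the dicarboxylate carrier Slc13a2, with sets at -0.37, -0.38 and -0.33.

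A test over the 4 LPS times asked which members changed with time. It called 34 members, or 19.5% against 16.7% of all features. The leading ones were Slc28a2, Slc15a3, Slc31a2, Slc11a2 and Slc25a37, which reached their highest mean at 4 h. Slc16a10, Slc25a33 and Slc20a1 passed with their highest mean at 1 h or 2 h (adjusted p = 0.00124, 0.00268 and 0.0127). They were not alone: Slc39a13, Slc38a1, Slc2a1, Slc25a23 and Slc7a11 also passed with their highest mean at 2 h. For Slc7a11 the means at 2 h and 4 h were alike (1.34 and 1.33). With the set as a block the test called 55 members, beside 28.1% of all features, and without set 1 it called 17. The block is lenient across times, because it takes the spread between sets out of the error without pairing the times.

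**Figure D3:**
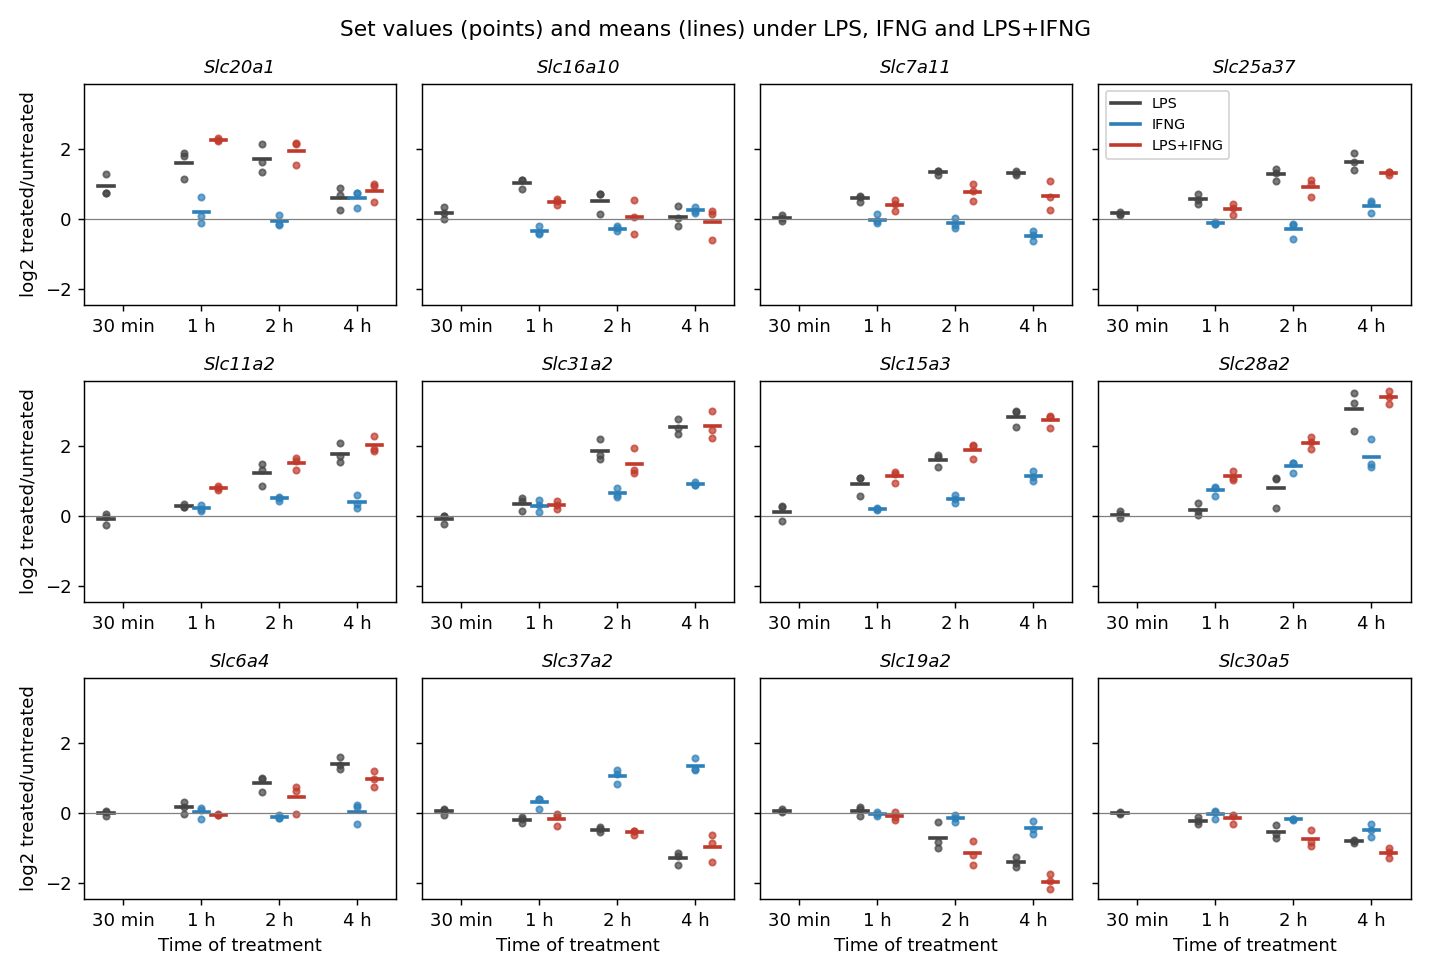
Set values (points) and group means (lines), as log2 treated/untreated, of 12 members under LPS, IFNG and both together over time; the members were chosen for display after their values were seen. Slc20a1 and Slc16a10 peak at 1 h or 2 h under LPS, Slc28a2 and Slc15a3 climb to 4 h, and Slc37a2 separates into a rise under IFNG and a fall under LPS.

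IFNG alone moved few members early. It called 2 at 1 h, both higher, against 1.13% of all features; 7 higher and 1 lower at 2 h, 4.6% against 3.43% (2.83% higher and 0.604% lower); and 13 higher and 9 lower at 4 h, 12.6% against 12.3% (6.31% higher and 5.99% lower). Slc28a2 led at each time: its sets read 0.58, 0.81 and 0.84 at 1 h, 1.53, 1.24 and 1.53 at 2 h, and 1.41, 1.48 and 2.20 at 4 h. The 4 h mean was 1.70 ± 0.44 (adjusted p = 3.83e-12). The other early rise was that of Slc12a7, a potassium-chloride cotransporter, with 0.47 ± 0.17 at 1 h, 0.86 ± 0.07 at 2 h and 0.55 ± 0.10 at 4 h. Neither 1 h call held without set 1 (0.83 and 0.54) or without set 2 (0.71 and 0.38). The number of calls at 2 h was 5 without set 1 and without set 3.

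Slc37a2 rose under IFNG, with sets at 1.24, 1.13 and 0.85 at 2 h and 1.25, 1.58 and 1.26 at 4 h (4 h mean 1.36 ± 0.19, adjusted p = 1.55e-12). Slc15a3 rose to 1.14 ± 0.14 and Slc31a2 to 0.92 ± 0.04 at 4 h, with Slc15a3 sets at 1.12, 1.01 and 1.29 and Slc31a2 sets at 0.90, 0.90 and 0.97. Slc30a1, Slc2a1, Slc39a13, Slc11a2 and Slc25a37 were also higher at 4 h, between 0.38 and 0.68; Slc2a1 had a value in only 2 of its 3 sets, and with listed zeros kept as 0 its value was 0.38 and did not pass. The lower members included Slc25a10, the mitochondrial dicarboxylate carrier (-0.50 ± 0.20), Slc30a5 (-0.49 ± 0.19), Slc7a11 (-0.48 ± 0.14), Slc16a9 (-0.47 ± 0.26), Slc6a12, the betaine and GABA carrier (-0.45 ± 0.03), Slc19a2 (-0.43 ± 0.19) and Slc29a2 (-0.38). The Slc7a11 sets read -0.47, -0.62 and -0.34, and the call did not hold without set 1 (-0.48) or set 2 (-0.41). Calls at 4 h were also lost for Slc2a1 without set 1 (0.64) or set 2 (0.58), Slc39a13 without set 1 (0.39) or set 2 (0.34), Slc11a2 without set 1 (0.42) or set 3 (0.28), and Slc25a37 without set 2 (0.33) or set 3 (0.32). They were lost for Slc25a10 without set 1 (-0.42), Slc16a9 without set 1 (-0.51) or set 2 (-0.57), Slc19a2 without set 2 (-0.33) and Slc29a2 without set 3 (-0.33). The block gave 39 calls at 4 h, beside 21% of all features. No gene of the amino acid group was called higher by IFNG at 4 h, and 2 of 31 were called lower. Among all features 6.31% were higher and 5.99% lower.

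The difference between IFNG and LPS at 4 h was tested directly. It called 24 members, 9 higher and 15 lower under IFNG, or 13.8% against 10% of all features (4.69% higher and 5.36% lower). The largest was Slc37a2, at -1.28 under LPS and 1.36 under IFNG, a difference of 2.65 ± 0.16 (SE); the differences within sets 1, 2 and 3 were 2.39, 2.81 and 2.75. Slc7a11 went the other way, with differences of -1.85, -1.89 and -1.67 (mean -1.80 ± 0.17 SE). Slc15a3 (-1.70), Slc31a2 (-1.63), Slc11a2 (-1.40), Slc28a2 (-1.37) and Slc25a37 (-1.26) rose with both agents and rose more with LPS. Slc6a4 (-1.38), Slc12a4 (-1.19), Slc39a5 (-1.05) and Slc22a17 (-1.01) were called with LPS only, at 0.00 to 0.09 under IFNG. The Slc39a5 value is a mean of probes that differed under LPS. Slc19a2 was lower with both and less so with IFNG (difference 0.99). The riboflavin carrier Slc52a3 stood at -0.21 with LPS, which did not pass, and at 0.32 with IFNG, a difference of 0.54. That call was lost without set 1 (0.46), and that of Slc22a17 without set 1 (-1.10) or set 3 (-0.80). Without set 1 the count was 13 and without set 2 it was 15. With the set as a block, the paired test, the count was 34 of 173 members, or 19.7% beside 17.4% of all features.

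2MA alone called 3 members at 1 h, 4 at 2 h and 5 at 4 h, against 1.41%, 1.33% and 2% of all features. Of these 2, 2 and 2 were higher, beside 0.794%, 1.03% and 1.42% of all features, and 1, 2 and 3 were lower, beside 0.612%, 0.302% and 0.578%. At 1 h Slc3a2 (0.43, 0.50 and 0.24) and Slc35a2 (0.40, 0.29 and 0.34) were higher, and the sulfate carrier Slc26a2 (-0.91, -0.24 and -0.67) was lower. At 2 h Slc20a1 was higher, with sets at 1.21, 1.42 and 0.43, and Slc30a1 too, with 1.13, 0.17 and 0.51. At 4 h Slc15a3 (0.94, 0.66 and 0.62) and Slc31a2 (0.89, 0.53 and 0.49) were higher. Slc6a12 was lower at 2 h (-0.31 ± 0.04) and 4 h (-0.44 ± 0.10), as was Slc30a5 (-0.31 ± 0.12 and -0.30 ± 0.15), and Slc1a2, whose probes differed under LPS, was lower at 4 h (-0.26 ± 0.21). All 12 calls were lost without set 1: the values were then 0.37, 0.32 and -0.45 for Slc3a2, Slc35a2 and Slc26a2 at 1 h, 0.93, 0.34, -0.30 and -0.24 for Slc20a1, Slc30a1, Slc6a12 and Slc30a5 at 2 h, and 0.64, 0.51, -0.49, -0.21 and -0.25 for Slc15a3, Slc31a2, Slc6a12, Slc30a5 and Slc1a2 at 4 h. These counts were the least stable: without set 1 they were 0, 0 and 0, without set 2 they were 13, 2 and 4, and without set 3 they were 3, 1 and 4. The block gave 17, 12 and 11, beside 5.71%, 4.29% and 6.58% of all features. Against LPS at 1 h, 3 members were lower with 2MA, beside 1.54% of all features in either direction and 1.07% lower: Slc16a10 (difference -1.02 ± 0.20 SE), Slc25a37 (-0.76 ± 0.14) and Slc15a3 (-0.74 ± 0.17). The block gave 13 calls, beside 4.2% of all features, and without set 1 there were 0, with values of -1.17, -0.76 and -0.72 for the 3 genes; Slc15a3 was also lost without set 3 (-0.65).

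LPS together with IFNG called 11 members higher and 4 lower at 1 h, 8.62% against 7.62% of all features (4.43% higher and 3.19% lower); 23 and 17 at 2 h, 23% against 20.8% (9.89% higher and 10.9% lower); and 30 and 37 at 4 h, 38.5% against 34% (15.2% higher and 18.8% lower). Without set 1 the first count was 5 and the second 25, and without set 2 the first was 9. The block gave 23 for the first, beside 14% of all features. The leading members at 4 h were those of LPS alone: Slc28a2 read 3.41, 3.21 and 3.59, Slc15a3 2.87, 2.53 and 2.85, Slc31a2 3.02, 2.25 and 2.46, and Slc11a2 2.29, 1.93 and 1.86. Slc20a1 stood highest at 1 h, with sets at 2.24, 2.34 and 2.26. Slc7a2 read 1.75, 2.38 and 1.32 at 4 h (mean 1.82 ± 0.53, adjusted p = 7.21e-09), where every set was above 1. Genes of the amino acid group were called lower more than higher here, 7 against 3 of 31, as were all features (18.8% against 15.2%). Among the lower were Slc7a5, the large neutral amino acid carrier (-0.65 ± 0.44), Slc1a5, the glutamine carrier (-0.59 ± 0.28), and Slc1a4 (-1.21 ± 0.82). The Slc7a5 value was -0.46 without set 1 and -0.59 without set 2, and neither passed. Slc19a2 fell to -1.96 ± 0.22, the largest fall of any member, and Slc25a33, higher at 1 h and 2 h of LPS, was lower (-0.73 ± 0.30).

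The number of members that differed between LPS with IFNG and LPS alone depended on whether sets were paired. The unpaired test called 1 at 1 h, 4 at 2 h and 6 at 4 h, against 1.01%, 2.74% and 4.15% of all features. With the set as a block, which pairs the treatments within sets, it called 1, 13 and 17 of 173 members, beside 1.51%, 6.33% and 8.62% of all features. Slc28a2 was higher with both agents at 1 h, at 1.14 against 0.18, with differences of 1.06, 0.91 and 0.90 in the sets. At 2 h it was 2.10 against 0.80, with differences of 1.22, 0.82 and 1.88. Slc6a12 was lower with both: at 4 h it stood at 0.14 with LPS and -0.67 with the pair, with differences of -0.68, -0.94 and -0.79, and at 2 h the mean difference was -0.55. Slc29a2 (-0.58) and Slc22a2, a carrier of organic cations (-0.36), were lower at 2 h. Slc7a11 was lower with both at 4 h, at 0.66 against 1.33, with differences of -0.76, -1.01 and -0.23. Slc19a2 was lower by a further 0.55. Slc33a1, which brings acetyl-CoA into the endoplasmic reticulum, was at -0.02 with LPS and 1.28 with the pair; its differences were 1.57, 1.13 and 1.21. Slc37a3 (0.75), and Slc52a3 (0.47) were higher. Slc6a12 at 2 h did not pass without set 1 (-0.49), Slc29a2 did not without set 2 (-0.64) or set 3 (-0.45), and Slc22a2 did not with any set left out (-0.43, -0.42 and -0.23). Slc28a2 at 1 h did not pass without set 1 (0.91) or set 2 (0.98), and Slc7a11 did not without set 1 (-0.62) or set 2 (-0.49). Slc37a3 did not without set 1 (0.67) or set 3 (0.68), and neither Slc52a3 (0.36, 0.55 and 0.50) nor Slc19a2 (-0.50, -0.57 and -0.58) passed without set 1, set 2 or set 3. Counts without set 1 were 0, 2 and 2, and the 1 h count was 0 without set 2.

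**Figure D4:**
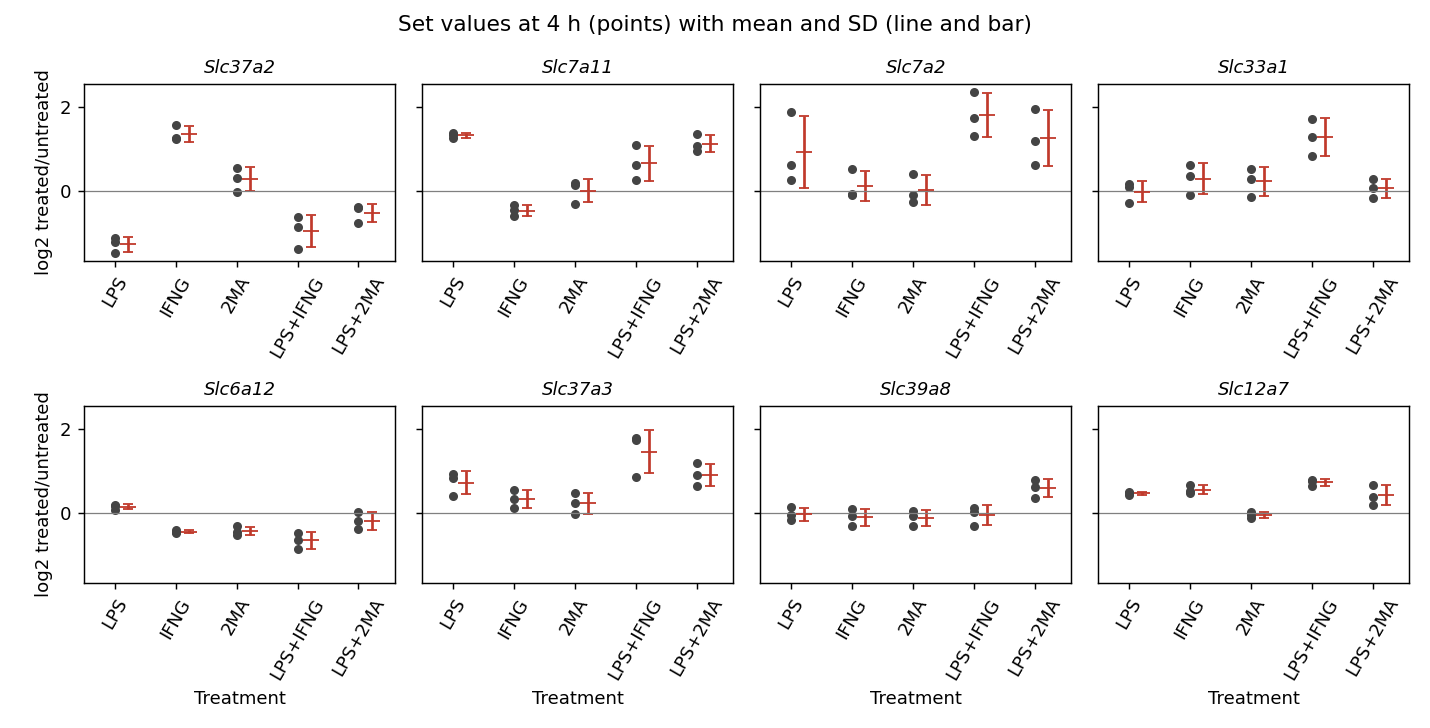
Set values at 4 h (points) with mean and SD (line and bar), as log2 treated/untreated, of 8 members under the 5 treatments; the members were chosen for display after their values were seen. Slc37a2 is above 1 in every IFNG set and below -1 in every LPS set, Slc33a1 stands out under LPS+IFNG, and Slc39a8 under LPS+2MA.

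The pair was also set against the sum of the separate responses at 4 h, which asks whether the agents add up on the log2 scale. The test called 6 members, against 2.71% of all features, and 11 with the set as a block, beside 5.72% of all features under that fit. What a set shares does not cancel against a sum, so the block is lenient here and no paired test. Below the sum were Slc28a2 (by sets -1.24, -1.80 and -1.05), Slc15a3 (-1.24, -1.48 and -0.99), Slc37a2 (-0.74, -1.22 and -1.17), Slc31a2 (mean -0.90) and Slc25a37 (mean -0.70). Slc37a2 with both agents, at -0.96 ± 0.39, lay on the LPS side of 0 in every set, although IFNG alone had raised it. Above the sum was Slc33a1 (1.21, 1.24 and 0.60). The count was 3 without set 1, 2 without set 2 and 5 without set 3; the Slc33a1 value was 0.92, 0.90 and 1.22 in these, and none passed. For Slc28a2 the value was -1.43 without set 1 and -1.14 without set 2, and neither passed. Slc25a37 was lost without set 1 (-0.82) or set 2 (-0.55), Slc31a2 without set 2 (-0.85) or set 3 (-0.83), and Slc37a2 without set 2 (-0.95).

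LPS with 2MA called 13 members higher and 3 lower at 1 h, 9.2% against 5.45% of all features (3.47% higher and 1.98% lower); 23 and 17 at 2 h, 23% against 17.8% (8.57% higher and 9.23% lower); and 33 and 31 at 4 h, 36.8% against 33.4% (14.9% higher and 18.5% lower). Without set 1 these counts were 4, 24 and 39; without set 2 the first was 10 and the second 26, and without set 3 the first was 9. The block gave 62 for the second, beside 26.7% of all features. At 4 h Slc28a2 was at 3.16 ± 0.16, Slc15a3 at 2.97 ± 0.09, Slc31a2 at 2.72 ± 0.14 and Slc6a4 at 1.90 ± 0.49. Slc5a3 read -1.52, -1.83 and -0.95 and Slc30a5 -1.19, -1.19 and -1.40. The metal carriers had 10 of 18 higher and 2 lower, with a median of 0.369. Slc39a5, whose probes differed with LPS alone, was among the higher. Slc20a1, higher at 1 h (1.76 ± 0.33) and 2 h (1.86 ± 0.51), was at 0.05 ± 0.44 at 4 h, which did not pass. Against LPS alone 0 members were called at 1 h, 0 at 2 h and 2 at 4 h, beside 0.0776%, 0.0949% and 0.354% of all features. The 2 were Slc37a2, at -0.53 against -1.28 (differences 0.74, 0.82 and 0.71), and Slc39a8, an importer of zinc and manganese, at 0.59 against -0.03 (differences 0.50, 0.95 and 0.42). With the set as a block 0, 1 and 6 were called, beside 0.19%, 0.518% and 1.8% of all features. In the unpaired fit neither gene was called with any set left out: Slc37a2 was then at 0.76, 0.73 and 0.78, and Slc39a8 at 0.68, 0.46 and 0.72. The Slc37a2 values lay near its difference of 0.76 over all sets, and these fits rest on fewer set values. Against the sum of LPS and 2MA at 4 h 0 members were called, beside 0.0604% of all features. With the block, which is lenient for a sum, 1 was called, beside 0.475%. At an unadjusted p under 0.05 in limma, 4, 12 and 10 of the 174 members passed against LPS at 1 h and 2 h and against the sum. Some genes without a change pass that threshold, and the share of all features was not computed, so no difference is read from these counts.

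A probe that names both Slc12a4 and Lcat was left out of the Slc12a4 mean. That probe read 1.05 at 4 h of LPS, beside 1.19 for Slc12a4 itself. Which of these genes it reported cannot be told, so it is no second measurement of Slc12a4.

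Likeness between members was measured as Pearson's r over the 16 group means, as a description: groups of the same time may share untreated RNA, and all LPS groups share an agent. Slc15a3 was most like Slc31a2 (r = 0.96) and Slc11a2 (0.959), and Slc31a2 was next most like Slc11a1 (0.959). Slc28a2 was most like Slc13a1 (0.897), whose probes differed at 4 h of LPS. Slc30a5 and Slc19a2, both lower with LPS, were most like each other (0.943). Slc37a2 was most like Slc50a1, a sugar carrier of the Golgi (0.849), which stood at -0.25 ± 0.05 with LPS at 4 h, a call lost with each set left out (-0.27, -0.25 and -0.22), and at 0.20 with IFNG, which did not pass. The early Slc20a1 and Slc16a10 were both most like Slc25a33 (0.785 and 0.772), and Slc33a1 had no close match (0.638 for Slc37a3).

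A list of 37 carriers known from macrophage work was set beside the family, of which 30 were tested. At 4 h of LPS 15 were higher and 5 lower, where 12.7% of all features were higher and 15.9% lower; 10 did not pass, namely Slc7a5 (-0.07), Slc7a1 (0.07), Slc1a5 (-0.28), Slc1a2 (0.04), Slc2a3 (-0.21), Slc16a1 (-0.26), Slc16a3 (0.05), Slc39a8 (-0.03), Slc29a3 (0.27) and Slc25a1 (-0.19). Slc2a3, a high-affinity glucose carrier, was lower with LPS and IFNG together at 4 h (-0.79 ± 0.40), a call lost without set 1 (-0.56). With IFNG at 4 h 8 of the 30 were higher and 2 lower, where 6.31% and 5.99% of all features were. The list was drawn up with earlier results of these data known, so its counts are no independent evidence.

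Genes that use what these carriers bring in, and other gene groups, were given as counts, to be read against the 12.7% of all features called higher and 15.9% called lower at 4 h of LPS. Of 8 tested genes of arginine use, 5 were higher and 0 lower at 4 h of LPS, with a median of 0.385: the nitric oxide synthase Nos2 stood at 3.02 ± 0.44, the ornithine decarboxylase Odc1 at 2.82 ± 0.05, Ass1, which remakes arginine from citrulline, at 1.24 ± 0.13, and the arginase Arg2 at 0.47 ± 0.23. The arginine carrier Slc7a2 was at 0.92 in the same cells, and with LPS and IFNG Nos2 was at 3.67, Ass1 at 2.30 and Slc7a2 at 1.82. Of 9 tested genes of glutathione and cystine use, 1 was higher and 2 lower at 4 h of LPS. Gclc, the catalytic subunit for the first step of glutathione synthesis, fell to -1.41 ± 0.12 while Slc7a11 stood at 1.33; Gclm was lower (-0.34) and Txnrd1 higher (0.56). Of 7 tested genes of metal storage and sensing 2 were higher, the copper-binding ferroxidase Cp (1.74 ± 0.39) and the transferrin receptor Tfrc (0.90 ± 0.38), and 3 lower, among them Aco1, the cytosolic aconitase that also binds iron-responsive elements (-0.51 ± 0.15). Of 10 tested genes of the amino acid stress response 2 were higher, Nupr1 (1.58 ± 0.57) and Asns (0.37 ± 0.06), and 0 lower. No glycolysis gene of 7 was called at 4 h of LPS; Hk2, an inducible hexokinase, was at 0.35 ± 0.33, and 2 of the 7 had an unadjusted p under 0.05 in limma. Among other transporters, 3 of 21 tested ABC genes were higher, near the share over all features, and 8 lower, led by Abcb6 (-0.74 ± 0.14), and 0 of 9 Slco and aquaporin genes were called (2 at an unadjusted p under 0.05). Of the macrophage markers 3 of 6 were higher and 1 lower at 4 h of LPS, and 0 of 4 T cell, 0 of 3 B cell, 0 of 4 fibroblast and 0 of 4 epithelial markers were called (1, 0, 0 and 0 at an unadjusted p under 0.05, in the same order).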

How the data were processed

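The authors deposited 1 value table of log2 ratios (Cy5 over Cy3) for 16281 probes on 96 arrays; background correction and centring are not given in the sources used here, and exact zeros (1277 to 2773 an array) were taken as missing. The dyes named in the labels set the sign, so that each value is treated over untreated. Probes with 1 gene were averaged by gene, and both dye orientations of a set were averaged to 1 value, which needed both. A feature was tested where every group had at least 2 sets, which kept 13698 probes as 11593 features. limma 3.58.1 (R 4.3.3; lmFit and eBayes, two-sided) fitted 1 mean per group over the 48 set values, with Benjamini-Hochberg adjustment over all features in each comparison, a threshold of 0.05 and 32 residual degrees of freedom. Sets of the same number deviated together within each compared pair of treatments (correlations of 0.119 to 0.73). The fit with the set as a block is therefore the paired test for a difference between 2 treatments at the same time.

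The rule for named genes took, per comparison, called members with 1 sign in all sets, up to 8 rises and 8 falls, members with a response of at least 1, and the listed macrophage transporters. The members and lists were chosen with earlier results of these data known. Another 2 probes name a carrier and a second gene and were left out of the gene means.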

Additional observations from a re-analysis of the deposited data

Results flagged for a closer look

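The values here are differences between treatments that passed the test of the difference itself in the unpaired limma fit (adjusted p below 0.05). They are differences of log2 treated/untreated. The fit with the set as a block called more members in most comparisons, and those further members are not listed here. Groups of 3 sets were not searched for single outlying sets.

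Between IFNG and LPS at 4 h, 24 members differed. Lower under IFNG were Slc7a11 (-1.80), Slc15a3 (-1.70), Slc31a2 (-1.63), Slc11a2 (-1.40), Slc6a4 (-1.38), Slc28a2 (-1.37), Slc25a37 (-1.26), Slc12a4 (-1.19), Slc39a5 (-1.05) and Slc22a17 (-1.01). Smaller differences in the same direction were those of Slc11a1 (-0.59), Slc6a12 (-0.59), Slc3a2 (-0.53), Slc13a1 (-0.46) and Slc30a6 (-0.44). The Slc39a5 and Slc13a1 values are means of probes that differed under LPS. Higher under IFNG were Slc37a2 (2.65), the thiamine carrier Slc19a2 (0.99), Slc35b1 (0.70), Slc37a4 (0.67), Slc52a3 (0.54), the carnitine carrier Slc22a5 (0.44), Slc50a1 (0.44), Slc29a1 (0.39) and the glucose carrier Slc2a8 (0.35). Of these 24, Slc37a2 and Slc7a11 were called in opposite directions by the 2 agents.

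Between LPS with IFNG and LPS alone, the unpaired test called 1 member at 1 h, 4 at 2 h and 6 at 4 h. With the set as a block, the paired test, the counts were 1, 13 and 17. The unpaired calls were Slc28a2 at 1 h (0.96), then Slc28a2 (1.31), Slc29a2 (-0.58), Slc6a12 (-0.55) and Slc22a2 (-0.36) at 2 h. At 4 h they were Slc33a1 (1.30), Slc6a12 (-0.80), Slc37a3 (0.75), Slc7a11 (-0.67), Slc19a2 (-0.55) and Slc52a3 (0.47). Against the sum of both responses at 4 h 6 members differed: Slc28a2 (-1.36), Slc15a3 (-1.24), Slc37a2 (-1.04), Slc31a2 (-0.90), Slc25a37 (-0.70) and Slc33a1 (1.02).

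Between LPS with 2MA and LPS alone, 2 members differed at 4 h, Slc37a2 (0.76) and Slc39a8 (0.62). Between 2MA and LPS at 1 h 3 differed, Slc16a10 (-1.02), Slc25a37 (-0.76) and Slc15a3 (-0.74). Across the LPS times 34 members differed.

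The probe that names both Slc12a4 and Lcat, which no comparison used, stood at 1.40 with LPS and 2MA at 4 h.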

How the results depend on the processing

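Of 437 called values of members, 251 stayed called without set 1, 309 without set 2 and 327 without set 3, and none turned its direction. These fits rest on fewer set values, so a lost call need not mean that the value moved. The counts of members called ranged, over the fits that left out 1 set, from 0 to 1 (LPS 30 min), 6 to 11 (1 h), 24 to 34 (2 h) and 41 to 51 (4 h). For IFNG they ranged from 0 to 2, 5 to 6 and 15 to 22 at 1 h, 2 h and 4 h, and for 2MA from 0 to 13, 0 to 2 and 0 to 4. For LPS with IFNG they ranged from 5 to 13, 25 to 41 and 50 to 64, and for LPS with 2MA from 4 to 10, 24 to 34 and 39 to 55. For the differences they ranged from 0 to 1, 2 to 4 and 2 to 4 (LPS with IFNG against LPS), 0 to 0, 0 to 1 and 0 to 0 (LPS with 2MA against LPS), 13 to 20 (IFNG against LPS), 0 to 3 (2MA against LPS), 2 to 5 and 0 to 0 (against the sums with IFNG and 2MA), and 17 to 28 over the LPS times.

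With the set as a replicate block, the paired test for a difference between 2 treatments, all 46 called differences of members stayed called. So did the 390 called responses that the block could estimate. Counts rose to 13 and 17 (LPS with IFNG against LPS at 2 h and 4 h), 1 and 6 (LPS with 2MA against LPS at 2 h and 4 h), 13 (2MA against LPS), 11 and 1 (against the sums) and 55 (LPS times). For responses against untreated cells the block takes the spread between sets out of the error, which makes it lenient by construction. It is lenient in the same way for the sums and the LPS times, where what a set shares does not cancel. Response counts were 2 and 19 (LPS 30 min and 1 h), 39 (IFNG 4 h) and 17, 12 and 11 (2MA). They were 23 for LPS with IFNG at 1 h and 62 for LPS with 2MA at 2 h. LPS was the only treatment at 30 min, so that time had no block term of its own.

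A fit on single arrays with a dye term and a random block per set gave 14 and 7 (2MA 1 h and 2 h), 12 (LPS with IFNG against LPS at 4 h), 4 (LPS with 2MA against LPS at 4 h), 9 (2MA against LPS) and 1 (the sum with 2MA). A stricter filter gave 5 for 2MA at 1 h. Other counts under these alternatives, and the counts with zeros kept, arrays centred, no filter or 1 probe per gene, stayed within 1.5 times. Single calls moved more. Of the 437 called values of members, 41 lost their call with 1 probe per gene. In the single-array fit 27 lost it, and with arrays centred 15. The numbers were 6 with zeros kept, 7 with no filter and, of 395 values, 8 with the stricter filter. With 1 probe per gene, 3 called values turned direction, all of genes with unlike probes: Slc13a1 with LPS and IFNG at 1 h (-0.0402), and Slc1a2 with LPS and IFNG at 4 h (0.0229) and with LPS and 2MA at 1 h (0.00633). The cause was not tested. Slc22a2 (LPS with IFNG against LPS at 2 h) and Slc19a2 (the same at 4 h) were the 2 differences that lost their calls with arrays centred. Their values were then -0.35 and -0.55. The array medians lay between -0.0183 and 0.0442.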
